A study of Mus musculus with 4 samples.

Results

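Genes of amino acid breakdown, ammonia disposal and serine synthesis were examined in the liver of mice on a high-fat diet. The set held 57 genes chosen by name, in 10 groups by pathway: the urea cycle, glutamate and transamination, ornithine and proline, tyrosine, tryptophan, histidine, serine, glycine and threonine, serine synthesis, methionine and sulfur amino acids, and branched-chain amino acids with lysine. The arrays carried a probe for 55 of them, out of 27669 genes with a probe in all. Haao and Amt had no probe by this rule. All 55 were past the filter on background. A test could be made for 54, since Slc25a13, a mitochondrial aspartate and glutamate carrier, was measured on 1 array only, with a log2 ratio of 1.19 there.

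The mice were male C57BL/6 animals on high-fat diet, in 2 groups of 4. Control mice received a scrambled antisense oligonucleotide (ASO), a synthetic strand that pairs with a transcript by sequence, and the others an ASO against Plin2, the coat protein of lipid droplets. Both were injected into the abdomen at 25 mg/kg, 2 times a week for 4 weeks. Each of 4 Agilent arrays set 1 control liver, dyed red with Cy5, against 1 liver labelled Plin2-ASO, dyed green with Cy3, with no array in exchanged dyes, so a dye effect of a probe and the treatment cannot be told apart. The age of the mice is not given in the sources used here.

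The liver is the main site where amino acids are broken down. Their nitrogen is collected as glutamate and ammonia, which the urea cycle turns into urea in periportal hepatocytes, while glutamine synthetase takes up the remaining ammonia around the central vein. The carbon skeletons enter glucose and fat metabolism, and histidine, serine and glycine also supply the folate-bound carbon units used for methylation. In RNA from whole liver, fewer cells of a type and less RNA per cell cannot be told apart.

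Log2 ratios are green over red, so values above 0 are higher in the livers labelled Plin2-ASO by the dyes in the labels. Plin2 itself, the target, was not lower in them: its log2 ratios were 0.24, 0.15, 0.83 and 0.36 on arrays 1 to 4 (mean 0.40, adjusted p = 0.155 in limma). If labels or dyes were exchanged, every direction below would be mirrored. The 4 arrays differed in the balance of their dyes: the median green signal was 0.879, 1.53, 0.383 and 1.92 times the median red signal on arrays 1 to 4. Array 3 had the most spots marked as outliers, 7.61%, against at most 3.83% on the others. Its log2 ratios over all genes also correlated least with the other arrays, the mean r over genes being 0.33 for array 3 and 0.51 to 0.65 for the others.

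More members were higher than lower in the livers labelled Plin2-ASO. At an adjusted p under 0.05, 12 of the 54 members tested rose (22.2%) and 3 fell (5.56%), while 39 did not pass. Over all 18044 genes tested, 3.69% rose and 6.08% fell at the same threshold. The share of members that fell was thus near that of all genes. The median log2 ratio of the members was 0.24, against -0.03 for all genes, and 36 of the 54 were above 0. The members were also brighter, with a median log2 signal of 14.25 against 9.691 over all genes tested. The part of brightness in these shares was not tested. Signals were well above background in every liver for 53 of the 54, the exception being Psat1. All 15 called members had 1 sign on every array that measured them, as had 29 of the 54 members tested, the 15 included. In 12 of the 15 the lowest liver of the higher group lay above the highest liver of the other. This was so for 18 of the 54 members tested. The share over all genes was counted neither for the shared sign nor for the separation, so these counts have no background. The 15 were called on these same values, so neither adds further support. The genes with the largest differences were Ftcd, Uroc1, Oat, Kmo and Prodh, the 5 members with more than a 2-fold change, all of them higher in the livers labelled Plin2-ASO.

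**Figure D1:**
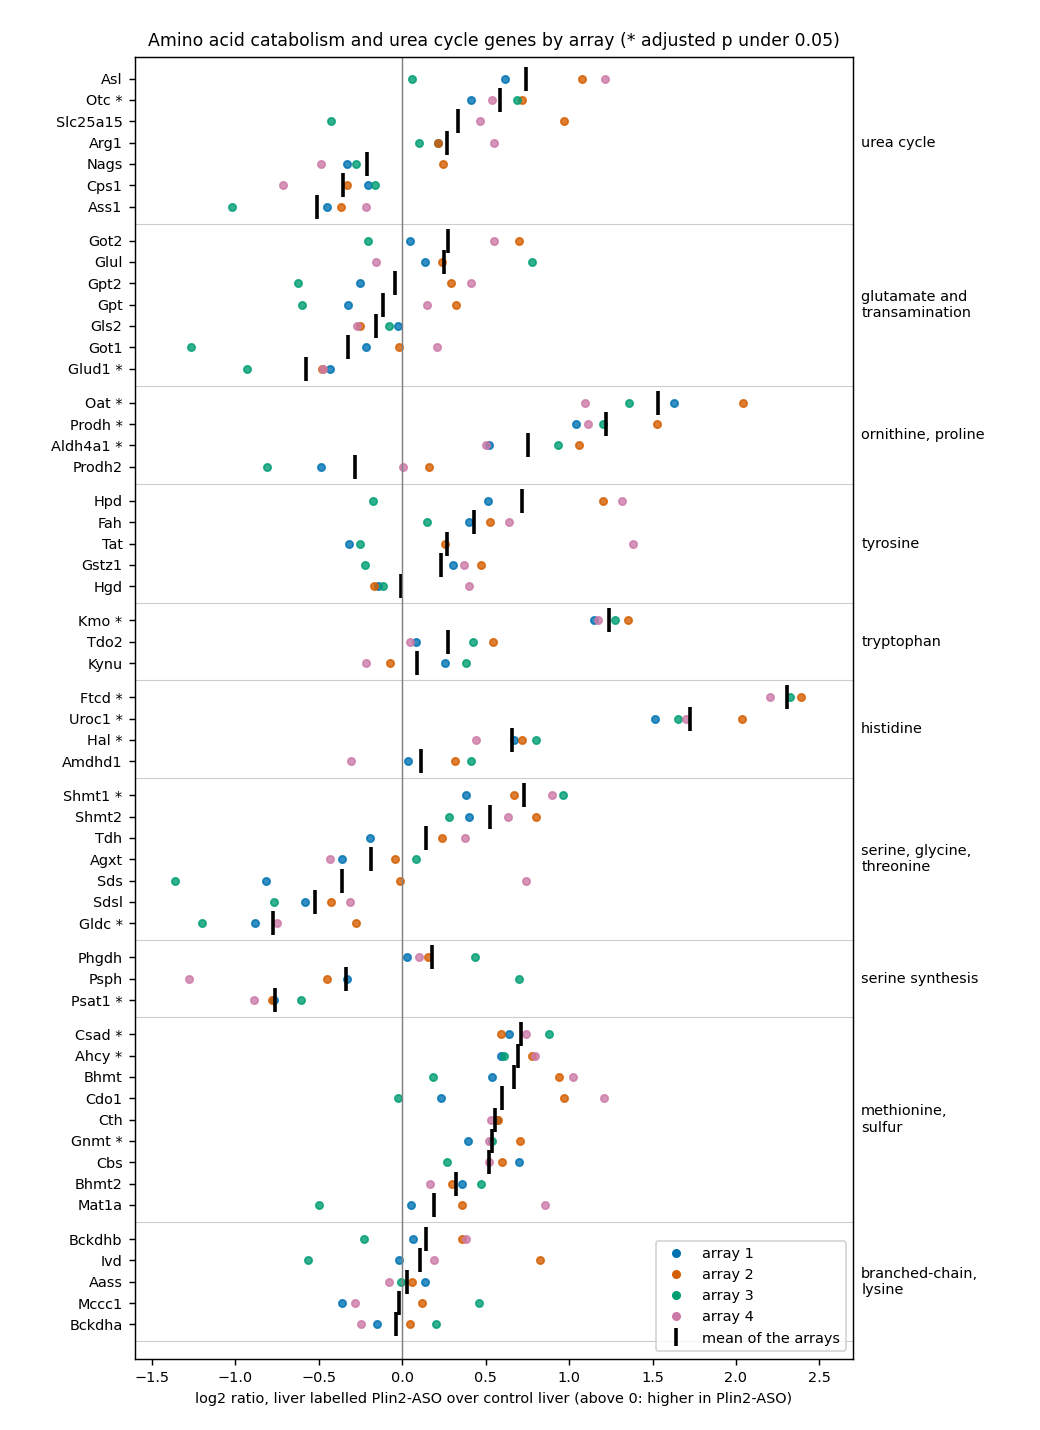
Log2 ratio of each of the 54 members tested (x axis) by gene and pathway group (y axis), with 1 point per array, the mean as a black bar and an asterisk for an adjusted p under 0.05. Ftcd, Uroc1, Oat, Kmo and Prodh lie above 1 on every array that measured them, and the points of array 3 often lie apart from the rest.

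The upstream sequence of those 5 genes is shown because they changed most. Each is the 250 bases before the transcription start in RefSeq on GRCm38.p6, 5′ to 3′ on the gene's strand, with the letters CAAAG or their complement CTTTG in capitals, a core of sites bound by the hepatocyte factor HNF4.
Ftcd: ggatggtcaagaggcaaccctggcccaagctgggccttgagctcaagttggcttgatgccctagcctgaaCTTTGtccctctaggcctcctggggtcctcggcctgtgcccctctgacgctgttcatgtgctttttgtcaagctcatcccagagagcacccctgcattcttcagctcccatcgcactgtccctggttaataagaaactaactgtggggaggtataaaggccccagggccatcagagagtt
Uroc1: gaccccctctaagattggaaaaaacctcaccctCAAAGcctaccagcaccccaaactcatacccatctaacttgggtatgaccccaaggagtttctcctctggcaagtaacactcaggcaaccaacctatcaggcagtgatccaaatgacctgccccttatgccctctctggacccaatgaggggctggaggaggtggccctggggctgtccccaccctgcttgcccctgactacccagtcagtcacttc
Oat: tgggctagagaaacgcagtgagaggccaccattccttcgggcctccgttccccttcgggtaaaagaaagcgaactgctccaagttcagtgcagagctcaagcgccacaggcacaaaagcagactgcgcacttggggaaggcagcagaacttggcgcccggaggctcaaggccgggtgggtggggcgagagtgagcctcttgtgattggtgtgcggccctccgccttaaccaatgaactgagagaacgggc
Prodh: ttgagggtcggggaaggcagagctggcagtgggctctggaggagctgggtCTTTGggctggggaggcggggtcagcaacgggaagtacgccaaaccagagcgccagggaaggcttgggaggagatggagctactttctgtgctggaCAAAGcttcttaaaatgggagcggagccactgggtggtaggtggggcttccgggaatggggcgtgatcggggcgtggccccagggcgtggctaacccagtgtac
Kmo: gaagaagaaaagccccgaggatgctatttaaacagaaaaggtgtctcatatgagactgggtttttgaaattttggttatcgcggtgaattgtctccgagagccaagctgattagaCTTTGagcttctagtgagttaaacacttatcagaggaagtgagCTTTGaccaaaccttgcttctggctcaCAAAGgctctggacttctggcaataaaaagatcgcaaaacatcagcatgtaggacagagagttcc
The windows lie at chr10:76575398-76575647 (plus strand) for Ftcd, chr6:90333039-90333288 (plus) for Uroc1, chr7:132576399-132576648 (minus) for Oat, chr16:18089191-18089440 (minus) for Prodh and chr1:175631943-175632192 (plus) for Kmo. CAAAG, on either strand, was in the windows of 4 of the 5, Oat being the exception, with 3 matches in Kmo and 2 in Prodh. It was in 9 of the 12 members that rose, in 22 of the 45 members with a window (48.9%) and in 48.6% of all 32851 windows of the same length. A TATAAA box stood 29 bases before the start of Ftcd, and was in 2 of the 12 and in 12.4% of all windows. The Oat and Prodh windows held 14 and 11 CG dinucleotides and the Uroc1 window 0, against a median of 6 over all windows. The other motifs searched on both strands were in 1 or 0 of the 12, too few windows to tell such counts from the shares over all windows. TTGCNNAA, letters of a C/EBP site, was in 1 (9.56% of all windows). TGTTCT (16.1%), ATCAAT (6.72%), TGATGNAA (3.45%) and TGACGTCA (1.55%) were in 0. These letters stand for part of a glucocorticoid receptor site, a Onecut site, an amino acid response element and a cAMP response element in that order. Each was searched on its own, and matches can share end letters with CAAAG. A match describes the letters and shows no binding.

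Histidine breakdown held the largest ratios: 3 of its 4 genes rose. Ftcd makes the last step, passing the formimino group of histidine to folate. Its log2 signal was 15.62, 15.73 and 15.34 in the livers labelled Plin2-ASO of arrays 2 to 4, against 13.23, 13.41 and 13.14 in the control livers; array 1 was marked as an outlier spot. The groups were far apart on each of those arrays. The mean log2 ratio was 2.30 ± 0.15 (SE, n = 3), a 4.94-fold higher level with an adjusted p of 0.00149 in limma. Uroc1, urocanase, carries out the second step. It read 14.98, 15.06, 15.27 and 15.02 in the livers labelled Plin2-ASO and 13.47, 13.03, 13.62 and 13.32 in the controls. All 4 higher values lay more than 1 unit above the highest control. Its mean log2 ratio was 1.73 ± 0.14 (SE, n = 4), or 3.31-fold, with an adjusted p of 0.00151.

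Hal, histidase, which opens the pathway, rose less. Its signal was 14.26, 14.49, 14.68 and 13.55 in the livers labelled Plin2-ASO against 13.59, 13.77, 13.88 and 13.11 in the controls. The groups overlapped, because the pair of array 4 was low in both dyes, but the ratio was above 0 on every array (mean 0.66 ± 0.13, 1.58-fold, adjusted p = 0.0248). Amdhd1, imidazolonepropionase, the third enzyme, gave 0.03, 0.32, 0.41 and -0.31 on arrays 1 to 4 (mean 0.11, adjusted p = 0.697). A second Amdhd1 probe gave 0.35, 0.73, 0.86 and 0.28, above 0 on each array, so the probes differ for this gene.

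In ornithine and proline breakdown, the route by which both become glutamate, 3 of 4 genes rose. Oat, ornithine aminotransferase, moves the nitrogen of ornithine onto a keto acid. It read 14.99, 15.36, 15.11 and 14.84 in the livers labelled Plin2-ASO and 13.36, 13.32, 13.75 and 13.75 in the controls. The groups did not overlap, and the gene was 2.89-fold higher (log2 1.53 ± 0.18, adjusted p = 0.00444). Prodh, proline dehydrogenase, had signals of 14.53, 15.05, 14.60 and 14.48 against 13.49, 13.52, 13.39 and 13.36. Every liver labelled Plin2-ASO was again above every control (log2 1.22 ± 0.14, 2.33-fold, adjusted p = 0.00423). Aldh4a1, which oxidises the semialdehyde made by both enzymes to glutamate, showed 13.83, 14.47, 14.17 and 13.72 against 13.31, 13.41, 13.24 and 13.22 (log2 0.75 ± 0.15, adjusted p = 0.0261). Its increase was smaller and without overlap. Its other probe gave a mean of 1.09, but -0.06 on array 3. Prodh2, which oxidises hydroxyproline, lay at -0.49, 0.16, -0.81 and 0.01 and did not pass (mean -0.28, adjusted p = 0.377).

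Of the tryptophan genes, Kmo rose. Kmo, kynurenine 3-monooxygenase, stands at the branch of the kynurenine route. Its signals were 11.95, 11.98, 11.93 and 11.53 in the livers labelled Plin2-ASO and 10.80, 10.63, 10.66 and 10.36 in the controls. The 4 log2 ratios, 1.15, 1.35, 1.28 and 1.17, were close together (mean 1.24 ± 0.12, 2.36-fold, adjusted p = 0.00293). Tdo2, tryptophan dioxygenase, the first enzyme of the route, had ratios of 0.09, 0.54, 0.43 and 0.04 (mean 0.27, adjusted p = 0.270), and Kynu, kynureninase, a mean of 0.09 (adjusted p = 0.752). Neither passed the test.

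All 9 genes of methionine and sulfur amino acid metabolism had a mean ratio above 0, with a median of 0.56, and 3 of them rose. Ahcy hydrolyses S-adenosylhomocysteine, the product of methylation. It read 17.01, 17.09, 17.37 and 17.00 in the livers labelled Plin2-ASO and 16.42, 16.31, 16.76 and 16.21 in the controls, with no overlap (log2 0.69 ± 0.13, 1.62-fold, adjusted p = 0.0184). Its other probes gave means of 1.20 and 1.59, the same direction and a larger ratio. Csad makes hypotaurine, the precursor of taurine. Its signals of 14.23, 14.48, 14.39 and 14.36 all lay above the controls at 13.59, 13.89, 13.51 and 13.62 (log2 0.71 ± 0.13, adjusted p = 0.0175). Gnmt, glycine N-methyltransferase, which uses up S-adenosylmethionine, was nearest to the threshold. It read 17.04, 16.92, 17.32 and 16.77 against 16.65, 16.21, 16.78 and 16.26, which overlap by 1 pair of livers from different arrays (log2 0.54 ± 0.13, 1.45-fold, adjusted p = 0.0426).

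The other 6 genes of this group did not pass. Bhmt, which remethylates homocysteine with betaine, had ratios of 0.54, 0.94, 0.18 and 1.02 (mean 0.67, adjusted p = 0.0555). Cbs and Cth, the enzymes of transsulfuration, had means of 0.52 (adjusted p = 0.0544) and 0.56 (n = 3, adjusted p = 0.0717), and in both genes the groups did not overlap. Cdo1, which oxidises cysteine, lay at 0.23, 0.97, -0.03 and 1.21 and Bhmt2 had a mean of 0.32. Mat1a, which makes S-adenosylmethionine in hepatocytes, spread from -0.50 on array 3 to 0.86 on array 4 (mean 0.19, adjusted p = 0.620).

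The urea cycle showed no common direction. Of 7 genes tested 4 were above 0 and 3 below, and only Otc rose. Otc, ornithine transcarbamylase, joins ornithine and carbamoyl phosphate. Its signal was 15.21, 15.21, 15.32 and 14.90 in the livers labelled Plin2-ASO and 14.80, 14.49, 14.63 and 14.36 in the controls, without overlap (log2 0.59 ± 0.13, adjusted p = 0.0343). Both further Otc probes had means above 0, 0.47 and 0.48, although one of them read -0.26 on array 4. Cps1, carbamoyl phosphate synthetase, the entry enzyme, had signals of 15.55, 15.50, 15.58 and 15.29 against 15.75, 15.83, 15.74 and 16. Ass1, argininosuccinate synthetase, had 16.56, 16.65, 16.34 and 16.47 against 17.01, 17.01, 17.36 and 16.68. In both genes every liver labelled Plin2-ASO was below every control, yet neither passed the test, at means of -0.35 (95% interval -0.69 to -0.01, adjusted p = 0.173) and -0.51 (-0.90 to -0.12, adjusted p = 0.100).

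Asl, argininosuccinate lyase, had the highest mean of the cycle and a wide spread. Its ratios were 0.62, 1.08, 0.06 and 1.22 (mean 0.74 ± 0.21, adjusted p = 0.0677). Arg1, arginase, which releases urea, was at 0.21, 0.21, 0.10 and 0.55 (mean 0.27, adjusted p = 0.251). Nags, which makes the activator of Cps1, had a mean of -0.21, and its second probe 0.17. Slc25a15, the mitochondrial ornithine carrier, lay between -0.43 and 0.97 on the 3 arrays that measured it. None of these 4 genes passed.

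Among the glutamate and transamination genes 1 of 7 fell and 0 rose. Glud1, glutamate dehydrogenase, releases ammonia from glutamate. It read 15.98, 15.94, 15.53 and 15.90 in the livers labelled Plin2-ASO and 16.41, 16.42, 16.45 and 16.37 in the controls. The controls lay within 0.1 of each other and above all the others, and array 3 had the lowest value of all (log2 -0.58 ± 0.14, 1.49-fold lower, adjusted p = 0.0476). Glul, glutamine synthetase, the enzyme of the cells around the central vein, had ratios of 0.13, 0.24, 0.78 and -0.16 (mean 0.25, adjusted p = 0.403). Gls2, the liver glutaminase, was at -0.02, -0.25, -0.08 and -0.27 (mean -0.16, adjusted p = 0.475). The aminotransferases gave means of -0.32 for Got1, 0.27 for Got2, -0.11 for Gpt and -0.04 for Gpt2, with adjusted p values from 0.382 to 0.916.

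Serine and glycine genes went in both directions. Shmt1, the cytosolic enzyme that passes a carbon unit from serine to folate, rose: it read 13.10, 13.29, 13.36 and 13.09 against 12.72, 12.62, 12.40 and 12.19, with no overlap (log2 0.73 ± 0.15, 1.66-fold, adjusted p = 0.0265). Its mitochondrial counterpart Shmt2 had a mean of 0.53 and did not pass (adjusted p = 0.0616), although its groups did not overlap. Gldc, the decarboxylase of glycine cleavage, fell. It read 12.17, 13.16, 12.57 and 12.49 in the livers labelled Plin2-ASO and 13.06, 13.44, 13.77 and 13.24 in the controls, and the groups overlapped by 1 liver, that of array 2 (log2 -0.78 ± 0.17, 1.71-fold lower, adjusted p = 0.0354).

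Sds, serine dehydratase, had the widest spread of the members in this group. Its ratios were -0.82, -0.02, -1.36 and 0.74 on arrays 1 to 4, so no direction was shared by the arrays (mean -0.36 ± 0.32, adjusted p = 0.513). Sdsl, a related enzyme, was below 0 on every array (mean -0.52, adjusted p = 0.0564). Agxt, which transaminates glyoxylate to glycine, and Tdh, threonine dehydrogenase, had means of -0.19 and 0.14. Neither passed.

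In serine synthesis 1 of 3 genes fell. Psat1, phosphoserine aminotransferase, was dim: the livers labelled Plin2-ASO read 7.23, 7.46, 7.85 and 7.40 and were well above background on 2 of 4 arrays, against 8.0, 8.24, 8.46 and 8.28 in the controls, all well above. The groups did not overlap (log2 -0.76 ± 0.13, adjusted p = 0.0137). This gene passed the background filter through the controls, so its difference and its place among the genes tested are linked. Phgdh, the first enzyme, had a mean of 0.18 (adjusted p = 0.431) by the probe used here, a dim one. The brightest Phgdh probe was measured on 2 arrays only and read -0.03 and -1.33 there. The third read -0.83, -0.84, 0.24 and -1.37 and was well above background in 2 livers labelled Plin2-ASO, so the probes of Phgdh disagree. Psph, the phosphatase of the last step, ranged from -1.28 on array 4 to 0.70 on array 3.

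**Figure D2:**
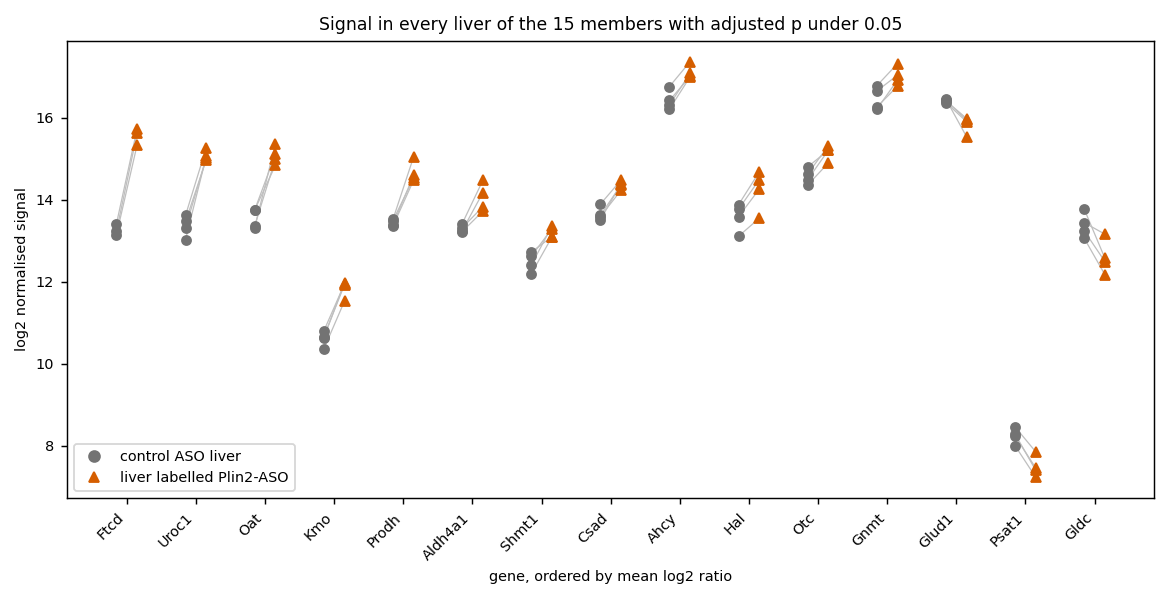
Log2 normalised signal (y axis) in every control liver (grey circles) and every liver labelled Plin2-ASO (orange triangles) for the 15 called members (x axis), with a line joining the livers of 1 array. The groups are apart in 12 of the genes and overlap in Hal, Gnmt and Gldc.

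In 2 groups no gene passed in either direction. The 5 genes of tyrosine breakdown had a median of 0.27. Tat, tyrosine aminotransferase, a gene induced by glucocorticoids and glucagon, gave -0.32, 0.26, -0.25 and 1.38, high on array 4 alone (mean 0.27, adjusted p = 0.590). Hpd, which oxidises hydroxyphenylpyruvate, lay at 0.52, 1.21, -0.17 and 1.32 (mean 0.72, adjusted p = 0.125). Fah, the last enzyme, was above 0 on each array and without overlap of the groups, yet not past the threshold (mean 0.43, adjusted p = 0.101). Gstz1 and Hgd had means of 0.23 and -0.01.

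The 5 branched-chain and lysine genes lay closest to 0, with means from -0.04 to 0.14. Bckdha and Bckdhb, subunits of the branched-chain keto acid dehydrogenase, were at -0.04 and 0.14, Ivd at 0.11, Mccc1 at -0.02 and Aass, the first enzyme of lysine breakdown, at 0.03. The 95% intervals of these 5 means reached from -0.42 to 0.63. Second probes of Bckdha and Mccc1 had means of 0.27 and 0.47, above those used. These 5 genes do not stand for the whole of branched-chain breakdown. Among its enzymes outside the set some rose, such as Hibadh (mean 1.43, adjusted p = 0.00485 in limma), and others did not pass.

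Beyond the 57 genes, 50 further enzymes of amino acid metabolism were tested, of which 9 rose and 1 fell, with a median of 0.27. By smallest p these were Ido2, an indoleamine dioxygenase at the same step as Tdo2 (1.57), Ddo, D-aspartate oxidase (1.21), Hibadh, of valine breakdown (1.43), and Asrgl1, an asparaginase (-0.86). Among 22 carriers and channels, most of them for amino acids, 2 rose and 2 fell. Over all genes tested, 3.69% rose and 6.08% fell. Slc1a2, a glutamate carrier of hepatocytes around the central vein, was at 1.19, 1.26, 1.11 and 1.18 (adjusted p = 0.00309), and Slc17a8, a vesicular glutamate carrier, had a mean of 1.09. Slc3a2, the shared heavy chain of several carriers, and Slc7a8, a neutral amino acid carrier that pairs with it, fell, with means of -0.90 and -1.10.

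Of 18 genes for factors and receptors that regulate these pathways, Onecut1 rose and 0 fell. Onecut1, a hepatocyte transcription factor, read 2.63, 2.25, 1.83 and 0.37 (mean 1.77, adjusted p = 0.0232), lowest on array 4. Values for factors known to act on members did not pass: Hnf4a had a mean of 0.78 (adjusted p = 0.0731), Ppara 0.55 (0.0857), Nr3c1, the glucocorticoid receptor, 0.06 (0.869) and Gcgr, the glucagon receptor, 0.16 (0.498). Of 16 genes of the amino acid starvation response 1 fell, Mthfd1l of mitochondrial folate metabolism (-1.66, adjusted p = 0.00147), and 0 rose. With 3.69% of all genes rising and 6.08% falling, 1 call among 18 or 16 genes is near the share over all genes. Mthfd1l was well above background in 2 of 4 livers labelled Plin2-ASO and in all controls, so, like Psat1, it passed the filter through the group where it was higher.

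**Figure D3:**
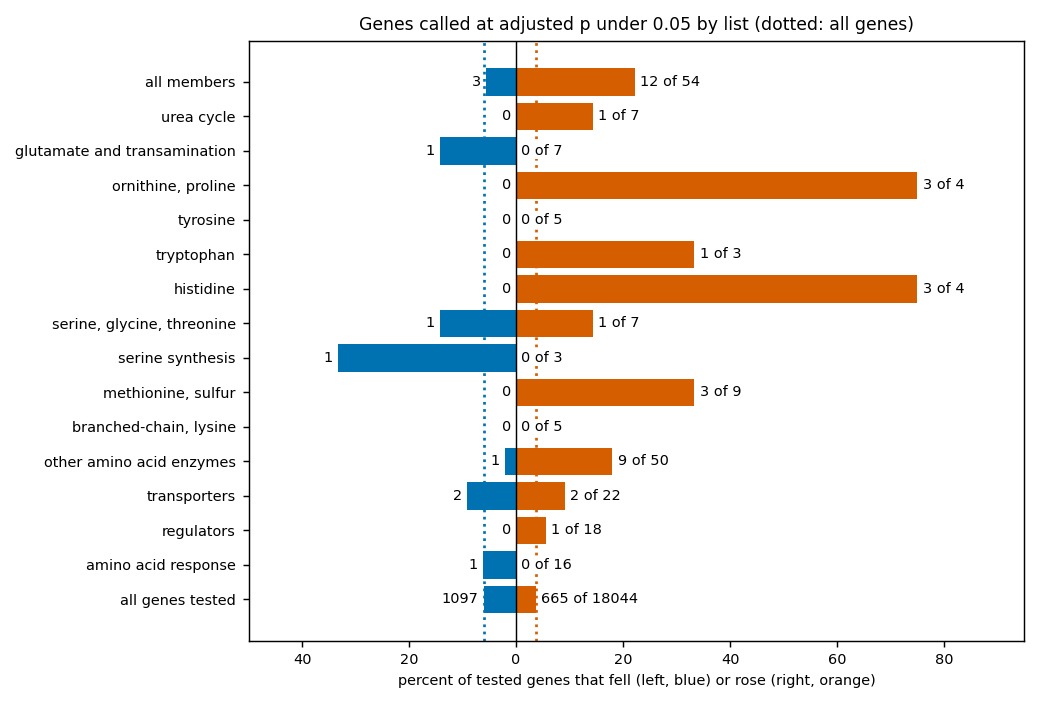
Percent of tested genes (x axis) that rose (orange, right) or fell (blue, left) at an adjusted p under 0.05 in each list (y axis), with counts beside the bars and dotted lines at the 3.69% and 6.08% of all genes. The histidine and the ornithine and proline groups have 3 of 4 genes called, and groups of 3 to 9 genes give coarse percentages.

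Some markers of liver cell types were also called in the same comparison. Over all genes tested, 3.69% rose and 6.08% fell. A list with 1 call among 5 markers is too short to be told from these shares. Of 6 hepatocyte markers tested 2 fell, Alb (-1.70) and Hpx (-1.24), and 0 rose. Sums of signal take only the markers measured on all 4 arrays, so that of the hepatocyte markers leaves out Hpx. This summed log2 signal was 18.24 to 18.70 in the livers labelled Plin2-ASO and 19.09 to 19.23 in the controls. Of 7 markers of hepatocytes around the central vein 3 rose (Slc1a2, Cyp1a2 and Rgn) and 0 fell. The sum of this list, without Cyp1a2, was 17.73 to 17.86 against 17.02 to 17.43. Of 6 periportal markers 2 rose (Cyp2f2 and Pigr) and 1 fell (Cdh1). The sum of this list, without Pigr, was 16.96 to 17.34 against 15.82 to 16.30. In it Cyp2f2 had mean log2 signals of 16.41 against 13.11, and Cdh1, much dimmer, 10.54 against 11.6. Stellate cell markers fell in 5 of 8 (15.55 to 16 against 16.83 to 17.52), endothelial ones in 5 of 8 (13.67 to 14.07 against 14.43 to 14.92) and cholangiocyte ones in 2 of 4 (12.53 to 13.31 against 14.35 to 15.31). Macrophage markers rose in 4 of 10 and fell in 5. The sum of 8 of them was 13.86 to 14.40 against 15.17 to 15.89. It leaves out Clec4f and Marco, measured on 3 arrays, so it does not describe the whole list. Both rose, with mean log2 signals of 13.47 and 13.68 against 11.11 and 11.2. Lymphocyte markers fell in 1 of 5 (11.41 to 11.74 against 11.92 to 12.28). Of 5 adipocyte markers 1 rose, Cfd (summed signal 12.72 to 16.01 against 13.71 to 14.62). The liver labelled Plin2-ASO of array 3 gave that highest value, with log2 ratios of 6.45 for Cfd, 4.10 for Adipoq, 1.96 for Plin1 and 1.69 for Fabp4; the next highest sum was 13.63. In no list was a marker in these sums below background in every liver of a group. The part of the cell types in the members' values was not tested.

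The order of the arrays recurred among the members. On arrays 2 and 4 both, the ratio was above that on arrays 1 and 3 in 22 of the 50 members measured on all arrays (44.0%), among them Asl, Bhmt, Cdo1, Got1, Gpt, Hpd, Mat1a, Sds and Tat, against 20.4% of all 16132 such genes. With the scanning software's own ratios it was 24 of 50 (48.0%) against 21.6%. Arrays 2 and 4 are those with more green than red signal. This order was singled out after the values were seen, and the part of the dye balance in it was not tested. Of the 5 members with more than a 2-fold change, Uroc1 alone is in the first count, and its lowest ratio was 1.52, while Ftcd was not measured on all arrays. The software's ratios also put Kmo and Prodh in it.

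Each array was left out in turn, and a gene then needed values on at least 2 of the 3 arrays left. The mean ratios of the 15 called members were then 0.799 to 1.22 times those with all arrays. Their direction could not change, since each had 1 sign on every array that measured it. Ftcd, Uroc1, Oat, Kmo and Prodh were called in each of the 4 runs. Ftcd was not measured on array 1, so the run without array 1 removed none of its values. In the other runs it rested on 2 arrays. Without array 1 or without array 2 these 5 genes were the only members called. In those runs 0.804% and 0.909% of all genes rose and 1.15% and 1.24% fell. Without array 4, Aldh4a1 and Hal were called besides them, with 2.11% of all genes rising and 3.42% falling. No member fell in these 3 runs at an adjusted p under 0.05. At an unadjusted p under 0.05, limma gave 4, 5 and 6 falling members without arrays 1, 2 and 4. The share of all genes at that threshold was not counted, so these counts have no background. Without array 3, 22 members rose and 6 fell, where 12.4% of all genes rose and 20.3% fell. All 15 called members were among these 28. The 13 further ones were Asl, Bhmt, Cbs, Cdo1, Cth, Fah, Gstz1, Hpd, Shmt2 and Slc25a15, which were higher, and Cps1, Psph and Sdsl, which were lower. Cth was not measured on array 3, so its own values were the same in this run. Its adjusted p in limma still went from 0.0717 to 0.00851. Slc25a15, not measured on array 1, rested on 2 arrays here.

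**Figure D4:**
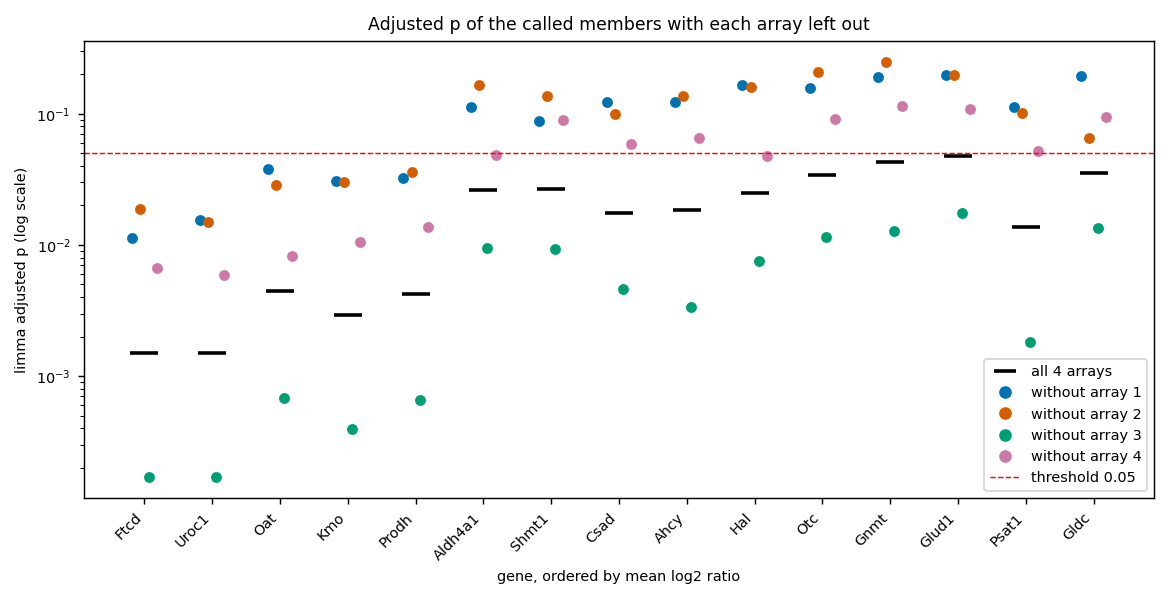
Adjusted p in limma (y axis, log scale) of the 15 called members (x axis) with all 4 arrays (black bars) and with each array left out (points), with the threshold of 0.05 dashed. Every point of Ftcd, Uroc1, Oat, Kmo and Prodh lies below the line, and without array 3 all 15 genes lie below it.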

How the data were processed

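Spot intensities were deposited by the authors as mean signals with the median local background, from Feature Extraction 9.5.1.1 per the file headers. All 4 arrays lay on 1 slide and in 1 scan. In limma 3.58.1 (R 4.3.3), signals were corrected with normexp (offset 50) and loess. Outlier spots were left out, and probes well above background on at least 3 of 4 arrays in 1 channel were kept. The brightest such probe measured on at least 3 arrays stood for a gene, and ratios were tested against 0 with lmFit and eBayes (7.21 degrees of freedom, two-sided, Benjamini-Hochberg over 18044 genes at 0.05). Standard errors and 95% intervals come from this fit. Levels per liver are log2 signals after loess and Aquantile scaling. No spot was saturated.

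The deposited log10 ratios (red over green, from the scanning software per the file headers) and the log2 ratios of the series table the authors deposited, equal to them after conversion and with column medians of 0, served as alternatives with their sign turned. Names came from the GRCm38.p6 table: of 76 member probes 64 matched by accession and 12 by symbol. Positions are given for promoters only, from RefSeq, for 45 of the 57 members.

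Each array was 1 replicate, so p-values measure the spread between 4 pairs of mice, array noise included. Members, gene lists and the rule for named genes (all members, and up to 4 genes by smallest p in each other list) were chosen with earlier results of these data known; the regulators that did not pass, the adipocyte markers on array 3 and the order of the arrays were singled out after their values were seen. The procedure was tested on simulated data. The alternatives were other background corrections, normalizations, filters, probe rules, variance models and weights, a GC correction, separate channels, another threshold and each array left out.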

Additional observations from a re-analysis of the deposited data

Results flagged for a closer look

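Of 80 genes examined on all 4 arrays, 4 had a single array apart from the rest by Dixon's test at the 95% level, which by chance marks about 1 in 20. Glud1 read -0.93 on array 3, below -0.48 to -0.43 on the others, and this array lowers its mean. Hgd, an enzyme of tyrosine breakdown, read 0.40 on array 4, above -0.17 to -0.12 on the rest. Outside the members, Rgn, a marker of hepatocytes around the central vein, read 0.13 on array 4 against 0.96 to 1.07, and Vsig4, a Kupffer cell marker, 3.33 on array 3 against 2.19 to 2.33.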

How the results depend on the processing

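Against 12 rising and 3 falling members, array quality weights gave 23 and 7. Over all 18044 genes tested, these weights gave 2799 rising and 4226 falling, against 665 and 1097 without them. Falling members were 5 with a GC correction of each array and 5 at an adjusted p under 0.1, but 1 with the scanning software's ratio, 1 with the strict background filter and 1 with trend and robust eBayes. Over all genes, 1341 fell with the GC correction, 1801 at the looser threshold, 857 with the software's ratio and 572 with trend and robust eBayes. With the strict filter 845 of 15079 fell. Rising members stayed between 8 and 17 under the alternatives other than weights and left-out arrays, where 360 to 1197 of all genes rose. With 1 array left out, 5 to 22 members rose and 0 to 6 fell. The members' median log2 ratio kept its sign, at 0.145 to 0.341 over these runs. Quality weights were 2.84, 1.96, 0.225 and 0.80 for arrays 1 to 4. In 12 members the mean changed sign over the alternatives, none of them called: Aass, Bckdha, Gpt, Gpt2, Hgd, Ivd, Kynu, Mat1a, Mccc1, Phgdh, Tat and Tdh (Phgdh the most, from -0.33 to 0.40). Ftcd, Uroc1, Oat, Kmo and Prodh passed under each alternative that measured them; Glud1 and Gnmt lost their call under 8, Otc under 7, Gldc under 6, Ahcy, Hal and Shmt1 under 4, and Aldh4a1, Csad and Psat1 under 3. Otc had an adjusted p of up to 0.209, Gnmt up to 0.353 and Glud1 up to 0.281. The cause was not tested. The fit with separate channels held 16132 genes and an intraspot correlation of 0.113. Each ratio is taken within an array, so the test with all arrays is itself paired by array. With 4 arrays and no dye swap, the number of arrays limits the precision, and Psat1 was dim.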
